A study of Mus musculus with 8 samples.

Results

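The 10 genes described here encode enzymes of cytosolic fatty acid synthesis, elongation and desaturation, together with 1 transcription factor that controls them. They are the rows of the count table whose gene name is Acly, Acaca, Acacb, Fasn, Elovl1, Elovl5, Elovl6, Scd1, Scd2 or Srebf1, and all 10 were found among the 34299 genes listed. Their RNA was read by bulk RNA-seq of polyadenylated RNA from whole mouse brain in 3 groups. The first was wild type (WT) on gestation day 15 (3 libraries), the second was Cav1 knockout (KO) on gestation day 15 (3 libraries), and the third was Cav1 KO at week 70 (2 libraries). Both KO groups share the loss of Cav1, the gene of caveolin 1, the coat protein of the membrane pits called caveolae. The labels name neither the knockout allele, the strain nor the sex of the animals, and they call the fetal replicates biological without saying which litters they came from. They do not say from which animals the week 70 pair came, but the X- and Y-linked counts given below differ between its libraries, so these were not prepared from the same animal. WT brain at week 70 was not analysed here. A difference between WT at day 15 and KO at week 70 therefore mixes genotype and age, and it is given as values with no test.

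Cells build fatty acids from acetyl-CoA. ATP citrate lyase (Acly) makes acetyl-CoA from citrate, acetyl-CoA carboxylases (Acaca, Acacb) turn it into malonyl-CoA, and fatty acid synthase (Fasn) condenses these units into palmitate. Elongases (Elovl1, Elovl5, Elovl6) lengthen the product, and stearoyl-CoA desaturases (Scd1, Scd2) introduce a double bond that gives monounsaturated fatty acids. Sterol regulatory element binding protein 1 (SREBP-1, the product of Srebf1) is the transcription factor best known for switching on this set of genes. In the brain the pathway supplies membrane lipids to dividing progenitors and growing neurites, and later to the myelin that oligodendrocytes wrap around axons.

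Promoter sequences show where the genes start and which letters known regulators of lipid synthesis could meet there. RefSeq windows on GRCm38.p6, each running from 250 bases before to 50 bases after an annotated start, were given for 8 of the 10 genes (11 windows). Scd1 and Scd2 were not matched. Fasn, Acly and Srebf1 are shown because their RNA differed most between genotypes among the matched genes, and Elovl6 because its RNA did not pass the test there. The windows lie at chr11:120824498-120824797 for Fasn, chr11:100527951-100528250 for Acly and chr11:60210422-60210721 for 1 of the 3 Srebf1 starts, all on the minus strand, and at chr3:129532136-129532435 on the plus strand for Elovl6. Capitals mark matches on either strand to CCAAT, the box bound by nuclear factor Y, and to GGGCGG, the box bound by Sp1.
Fasn: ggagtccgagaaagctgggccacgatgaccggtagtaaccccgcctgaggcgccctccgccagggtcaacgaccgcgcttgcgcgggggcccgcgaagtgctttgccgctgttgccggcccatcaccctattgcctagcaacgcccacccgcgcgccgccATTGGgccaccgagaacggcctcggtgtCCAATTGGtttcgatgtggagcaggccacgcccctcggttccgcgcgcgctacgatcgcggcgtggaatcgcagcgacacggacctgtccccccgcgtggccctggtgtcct
Acly: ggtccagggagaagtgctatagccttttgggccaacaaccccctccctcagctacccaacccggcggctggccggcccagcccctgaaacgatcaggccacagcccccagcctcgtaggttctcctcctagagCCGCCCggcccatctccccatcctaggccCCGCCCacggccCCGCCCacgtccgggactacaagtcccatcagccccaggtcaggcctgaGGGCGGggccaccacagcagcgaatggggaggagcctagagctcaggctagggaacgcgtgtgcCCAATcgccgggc
Srebf1: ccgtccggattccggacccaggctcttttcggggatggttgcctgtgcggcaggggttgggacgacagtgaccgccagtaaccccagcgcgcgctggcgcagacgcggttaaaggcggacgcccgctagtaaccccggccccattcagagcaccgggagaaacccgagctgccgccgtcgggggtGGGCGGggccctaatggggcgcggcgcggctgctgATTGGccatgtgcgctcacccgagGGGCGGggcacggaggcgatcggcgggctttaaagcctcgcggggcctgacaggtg
Elovl6: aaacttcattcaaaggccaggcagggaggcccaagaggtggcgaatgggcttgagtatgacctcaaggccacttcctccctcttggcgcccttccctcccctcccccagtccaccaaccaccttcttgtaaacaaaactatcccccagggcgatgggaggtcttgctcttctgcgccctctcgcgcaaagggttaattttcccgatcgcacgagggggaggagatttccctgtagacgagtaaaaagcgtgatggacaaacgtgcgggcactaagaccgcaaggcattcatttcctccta

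The Fasn window held 3 CCAAT matches, whose first bases lie at -90, -62 and -59 from the start, and the last 2 overlap. The Acly window held 4 GGGCGG matches, at -117, -88, -76 and -27, and a CCAAT match at 37. The Srebf1 window shown held a CCAAT match at -30 and GGGCGG matches at -65 and -6. No match to these motifs was found in the Elovl6 window. The windows not shown differed from this contrast. The Acaca window also held no match, though Acaca RNA was lower in KO at day 15. An Elovl1 window held 5 GGGCGG matches and 1 CCAAT match, though Elovl1 RNA did not pass the test there. Among all 32851 mouse promoter windows of 300 bases, 37.4% held CCAAT and 35.7% held GGGCGG, so these matches are common. The core of the sterol regulatory element, searched as TCACNCCAC on both strands, was found in 1.24% of all windows and in none of the 11. The E-box CACGTG, found in 7.15% of all windows, was matched in the Elovl5 window alone, at -161. These matches describe the letters of these windows and nothing more.

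Depth ranged from 14110031 to 20833397 counts per library, and every WT library at day 15 (at least 19414747) was deeper than every KO library at day 15 (at most 15245283). Levels are given as CPM, a gene's counts scaled to a common library size, after TMM scaling over the 8 libraries, and they cover what was counted, so fewer cells of a type and less RNA per cell cannot be told apart. The Cav1 count was 367, 218 and 329 in the WT libraries, 0, 3 and 1 in the KO libraries of day 15, and 1 and 5 at week 70. The tissue label was matched by neuronal markers in every library (summed CPM of 6 markers 3545.1 to 7805.2). Xist was high in all 6 fetal libraries and in week 70 replicate 1 (7969 counts), which held 0 counts of the Y-linked Ddx3y, while week 70 replicate 2 held 4 counts of Xist and 1137 of Ddx3y. The genotypes at day 15 also differed along transcript GC content. The median log2 fold change of KO over WT was 0.65 for genes with 37.5 to 40% GC (969 genes) and -0.47 for genes with 57.5 to 60% GC (1214 genes). The 2 ages within KO differed more and in the opposite direction. There the median of week 70 over day 15 was -1.33 (1018 genes) and 0.63 (1244 genes) in the same 2 ranges. The fold changes are therefore also given from a second fit, in which every library's trend along transcript length and GC content was removed (the corrected fit). Both trends were removed together, and the trend along length is not shown. A gene's shift between the fits can therefore not be assigned to either.

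**Figure D1:**
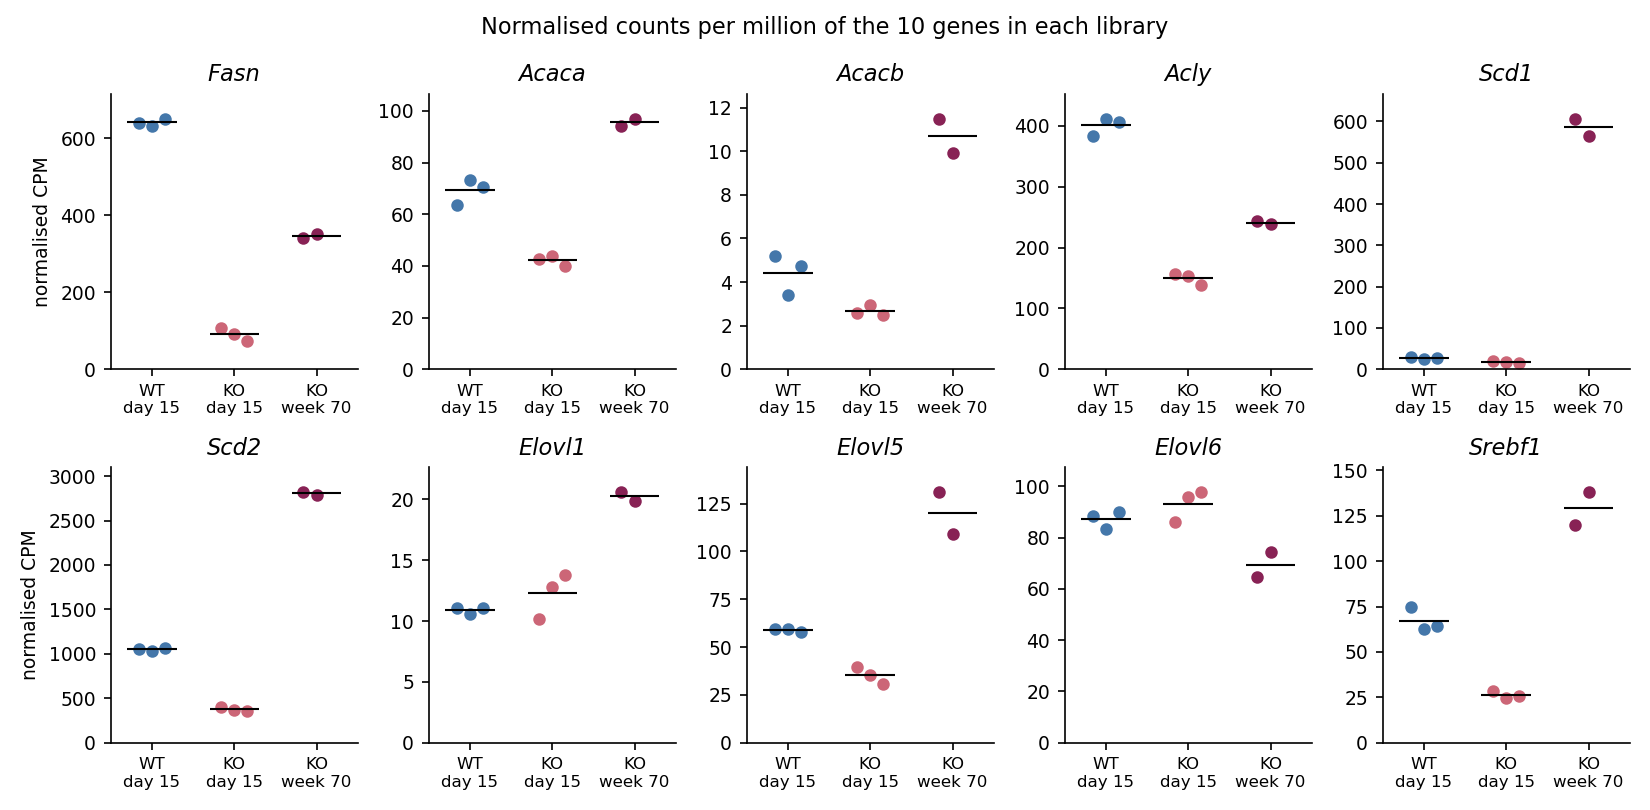
Normalised CPM (y axis, linear from 0, a separate scale for each gene) of the 10 genes in WT day 15, KO day 15 and KO week 70 libraries; each point is a library and each line a group mean. Fasn and Acly are highest in WT at day 15, whereas Scd1 stands at 15.2 to 29.1 CPM in the fetal libraries and at 607 and 565 CPM at week 70.

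At day 15, RNA of Acly and Fasn was lower in KO brain than in WT brain in both fits. The carboxylase genes Acaca and Acacb were called lower without the correction but not in the corrected fit. By edgeR's quasi-likelihood test with Benjamini-Hochberg adjustment over all tested genes, 8 of the 10 genes fell and none rose, while 32.5% of all 19147 tested genes fell and 30.1% rose. The same 8 genes had no KO library within the range of the WT libraries and lay below it, as did 34.5% of tested genes. With the trends along length and GC removed, 6 of the 10 fell and 1 rose, against 25.1% and 26% of all tested genes. Tested against a change of 1.5-fold, 4 of the 10 fell (Fasn, Acly, Scd2 and Srebf1), against 14.8% of tested genes. The median log2 fold change over the 10 genes was -0.69, or -0.43 in the corrected fit, beside 0.03 over all tested genes in both fits.

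Acly, which supplies the acetyl-CoA, lies at chromosome 11, positions 100476353 to 100528000 (GRCm38, minus strand). It measured 384, 412 and 406 CPM in WT, 157, 153 and 138 CPM in KO at day 15, and 243 and 239 CPM in KO at week 70. The 3 groups were fully apart, with the fetal KO lowest and WT highest. Acly fell in KO at day 15 by 1.39 ± 0.0674 on the log2 scale (SE, n = 3 per group, adjusted p = 6.3e-08), and by 0.89 in the corrected fit (adjusted p = 1.73e-06).

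The carboxylase genes moved less. Acaca (chromosome 11, positions 84129672 to 84401651, plus strand) encodes the cytosolic carboxylase that feeds fatty acid synthase. It measured 63.7, 73.4 and 70.5 CPM in WT and 42.8, 43.8 and 40.0 CPM in KO at day 15, which do not overlap. Its log2 fold change was -0.67 ± 0.0733 (adjusted p = 1.72e-05), but -0.07 in the corrected fit (adjusted p = 0.453), so the call ended with that correction. The Acaca count itself is uncertain, since 52.6% of the 50-base stretches of its longest transcript also occur in Gm5182, a processed pseudogene on chromosome 12 (positions 10152142 to 10158233). The counts assigned to Gm5182 were 2932, 2418 and 2677 for the WT libraries and 846, 954 and 845 for the KO libraries. Those of Acaca were 1364, 1471 and 1403, and 706, 788 and 691. With both genes summed, an analysis added after the data had been seen, the fall was 1.06 ± 0.0571 on the log2 scale (adjusted p = 1.16e-07). The sum was fitted only without the length and GC correction, so it does not bear on the corrected value.

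Acacb (chromosome 5, positions 114146535 to 114250761, plus strand) encodes the carboxylase at the mitochondrial surface, whose malonyl-CoA restrains fatty acid import into mitochondria. It was a low gene, with 5.19, 3.39 and 4.72 CPM in WT and 2.6, 2.94 and 2.49 CPM in KO at day 15. Its log2 fold change was -0.68 ± 0.207 (adjusted p = 0.0149) and turned to 0.36 in the corrected fit (adjusted p = 0.144). The call also ended with upper-quartile scaling (adjusted p = 0.0523), with scaling by total counts (0.0512) and without KO replicate 3 (0.0504).

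Fasn (chromosome 11, positions 120805846 to 120824547, minus strand) encodes the synthase itself, and it differed most between genotypes among the 10 genes. It measured 639, 633 and 651 CPM in WT and 108, 91.3 and 73.8 CPM in KO at day 15. WT libraries varied little (641 ± 9.64, SD) and the highest KO library reached 108 CPM, so the groups were far apart. The mean was 7.03-fold higher in WT, and the log2 fold change was -2.78 ± 0.115 (adjusted p = 2.75e-08). A value that low or lower was found in 0.287% of all tested genes. The corrected fit gave -1.68 (adjusted p = 3.42e-07, 1.13% of tested genes as low), and all 18 alternative fits kept the direction and the call.

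The elongase genes did not move together. Elovl5, which extends polyunsaturated fatty acids (chromosome 9, positions 77917364 to 77984519, plus strand), measured 59.5, 59.2 and 57.9 CPM in WT and 39.8, 35.5 and 30.7 CPM in KO. These groups do not overlap. Its log2 fold change was -0.70 ± 0.0844 (adjusted p = 3.84e-05), and -0.96 in the corrected fit (adjusted p = 1.11e-05). Its GC content of 44.8% was the lowest but 1 among the 10 genes. Elovl6, which extends palmitate to stearate (chromosome 3, positions 129532355 to 129638495, plus strand), measured 88.5, 83.5 and 90.2 CPM in WT and 86.0, 95.7 and 97.8 CPM in KO. These values overlap, and the log2 fold change of 0.13 ± 0.0657 did not pass the test (adjusted p = 0.0994). It rose by 0.24 in the corrected fit (adjusted p = 0.00428), by 0.31 with upper-quartile scaling (adjusted p = 0.00236) and by 0.18 without KO replicate 1 (adjusted p = 0.0344), and it also passed with scaling by total counts.

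Elovl1, which makes very long saturated and monounsaturated chains for sphingolipids (chromosome 4, positions 118428093 to 118432953, plus strand), measured 11.1, 10.6 and 11.1 CPM in WT and 10.2, 12.8 and 13.8 CPM in KO. The KO libraries spanned the WT range on both sides. The log2 fold change of 0.21 ± 0.132 did not pass the test (adjusted p = 0.179), nor did the corrected value of 0.26 (adjusted p = 0.124). It passed with upper-quartile scaling (0.39, adjusted p = 0.026) and with scaling by total counts (0.38), settings under which the median of all tested genes moved from 0.03 to 0.20 and 0.19.

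Both desaturase genes were lower in KO. Scd2, the main desaturase of the developing mouse brain (chromosome 19, positions 44293674 to 44306864, plus strand), had the highest level of the 10 genes per length of transcript. It measured 1056.6, 1029.4 and 1067.2 CPM in WT and 404, 370 and 356 CPM in KO at day 15. Every KO library lay far below every WT library. Its log2 fold change was -1.44 ± 0.062 (adjusted p = 3.31e-08), and -0.97 in the corrected fit (adjusted p = 5.38e-07). Scd1, its neighbour on chromosome 19 (positions 44394455 to 44407879, minus strand) and the main isoform of liver and fat, measured 29.1, 24.3 and 28.2 CPM in WT and 20, 16.4 and 15.2 CPM in KO. It fell by 0.62 ± 0.114 on the log2 scale (adjusted p = 0.000776) and by 0.39 in the corrected fit (adjusted p = 0.0157). The fall of Scd1 did not pass the test against 1.5-fold (adjusted p = 0.43). Of the 5406 stretches of 50 bases in Scd2, 145 also occur in Scd1. How reads from them were assigned is not known, so the low fetal counts of Scd1 beside the high Scd2 are uncertain.

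Srebf1 (chromosome 11, positions 60199089 to 60222581, minus strand) fell with the enzymes. It measured 74.5, 62.5 and 64.3 CPM in WT and 28.6, 24.7 and 25.9 CPM in KO, with no overlap. The counts do not separate its SREBP-1a and SREBP-1c forms, which start from different promoters. The log2 fold change was -1.31 ± 0.0824 (adjusted p = 3.26e-07), and it shrank to -0.48 in the corrected fit (adjusted p = 0.000395). Its GC content of 58.4% was the highest of the 10 genes.

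**Figure D2:**
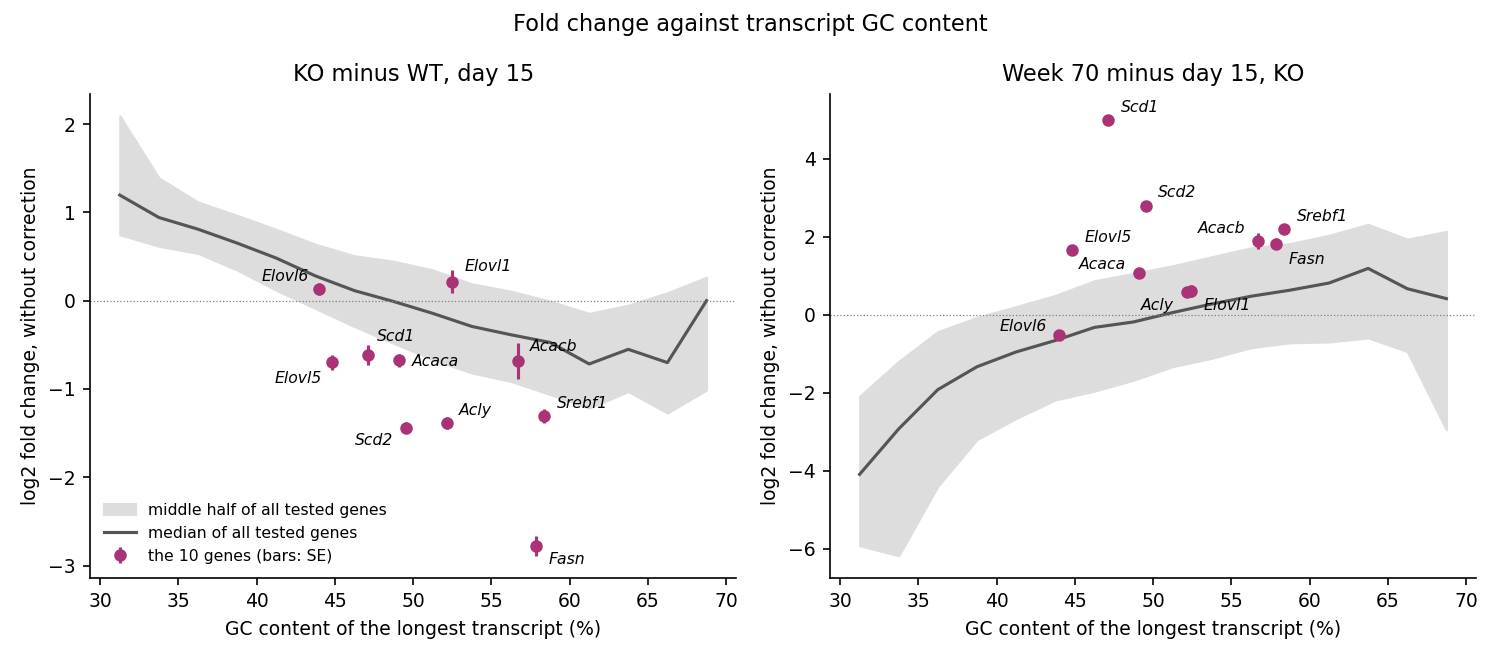
Log2 fold change without correction (y axis) against GC content of the longest transcript in percent (x axis) for the 10 genes (points, bars are standard errors) and for all tested genes in GC bins (line, median; band, middle 50%). Fasn at -2.78 and Scd2 at -1.44 lie below the band at day 15, and Scd1 at 4.99 lies far above it in the age comparison.

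Marker RNAs of other cell types of the fetal brain also differed between the genotypes. Their calls come from the fit without correction, in which 32.5% of all tested genes fell and 30.1% rose. Summed CPM of the 5 neural progenitor markers was 954 to 1064.4 in WT and 355 to 385 in KO, and 5 of 5 fell. Fabp7, a gene of radial glia outside that list, went the other way (281 CPM in WT and 785 CPM in KO). The 5 endothelial markers summed to 122 to 170 and 37.8 to 51.5 (5 of 5 fell), and the 6 astrocyte markers to 376 to 429 and 177 to 183 (4 of 6 fell, 1 rose). The 5 precursor markers of oligodendrocytes summed to 94.1 to 129 and 36.9 to 50.1 (5 of 5 fell), whereas 4 of 5 erythroid markers rose, from 710 to 803 up to 2496.4 to 3049.3. Neuronal markers summed to 4777 to 5287 and 3545.1 to 3650.2 (4 of 6 fell, 1 rose). The 5 fibroblast and meningeal markers ranged from 278 to 4381.6 among WT libraries and from 52.2 to 122 in KO (3 of 5 fell, 0 rose). WT replicate 1 stood apart, with 49885 counts of Col1a1 against 1408 and 2623 in the other WT libraries. The part of these cell types in the fall of the synthesis genes was not tested. Fat and liver are tissues where this pathway is very active. At day 15 the 5 adipocyte markers summed to at most 1.21 CPM, with Adipoq, Lep and Cidec at 3 counts or fewer in each library, and the 4 liver markers in the table to at most 12.2 CPM.

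Between day 15 and week 70 within KO brain, 9 of the 10 genes rose and Elovl6 fell, by the same test. Over all 20000 genes tested, 37.6% rose and 44.4% fell. In the corrected fit 8 of the 10 rose and 1 fell, against 39.6% and 39.2% of all tested genes. Tested against 1.5-fold, 7 of the 10 rose, against 28.9%. The 9 rising genes had both week 70 libraries above all fetal KO libraries, as did 40.2% of tested genes. The median log2 fold change over the 10 genes was 1.75, or 1.11 in the corrected fit, beside -0.19 and -0.04 over all tested genes. This comparison uses the same KO libraries of day 15 as the genotype comparison, so a low value there enters both. It also mixes age with sex in part. The fetal KO libraries held high Xist and 1, 2 and 0 counts of Ddx3y, whereas week 70 replicate 2 held 1137 counts of Ddx3y. The part of sex was not tested.

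The desaturases rose most in the age comparison. Scd1 went from 17.2 ± 2.51 CPM (SD, n = 3) to 607 and 565 CPM, which is 34-fold by the means and 4.99 ± 0.12 on the log2 scale (adjusted p = 1.46e-10). The corrected fit gave 4.92. Scd2 went from 377 ± 24.8 CPM to 2820.2 and 2792.3 CPM, or 2.80 ± 0.098 on the log2 scale (adjusted p = 1.47e-09), and 2.46 in the corrected fit. Both week 70 libraries of either gene lay far above every fetal library, WT included.

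Srebf1 rose from 26.4 ± 2.01 CPM to 120 and 138 CPM (log2 fold change 2.19 ± 0.0992, adjusted p = 8.99e-09; 1.17 corrected). Acacb rose from 2.68 ± 0.237 CPM to 11.5 and 9.93 CPM (1.89 ± 0.214, adjusted p = 1.28e-05; 1.14 corrected). Fasn rose from 91.2 ± 17.3 CPM to 342 and 352 CPM (1.83 ± 0.132, adjusted p = 3.46e-07; 1.09 corrected), which leaves it below every WT library of day 15. Among the elongases, Elovl5 rose from 35.3 ± 4.55 CPM to 131 and 109 CPM (1.67 ± 0.118, adjusted p = 2.89e-07; 2.10 corrected). Elovl1 rose from 12.3 ± 1.86 CPM to 20.6 and 19.9 CPM (0.62 ± 0.158, adjusted p = 0.00418), a call that ended with upper-quartile scaling (0.37, adjusted p = 0.0557) and with scaling by total counts (0.08, adjusted p = 0.637). Elovl6 fell from 93.2 ± 6.3 CPM to 64.7 and 74.3 CPM, by 0.52 ± 0.101 on the log2 scale (adjusted p = 0.000696), and by 0.26 in the corrected fit (adjusted p = 0.011).

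The rises of Acly and Acaca with age each rested on a choice of analysis. Acly rose from 149 ± 9.82 CPM to 243 and 239 CPM (0.59 ± 0.086, adjusted p = 8.85e-05), but the corrected fit gave 0.06 (adjusted p = 0.492), as did scaling by total counts (0.06, adjusted p = 0.538). Acaca rose from 42.2 ± 1.95 CPM to 94.2 and 97.0 CPM (1.08 ± 0.0841, adjusted p = 6.39e-07; 1.03 corrected). Its pseudogene Gm5182 fell over the same interval to 153 and 176 counts, by 2.30 ± 0.12 on the log2 scale. With Acaca and Gm5182 summed, the level was 93.2 ± 3.98 CPM at day 15 and 107 ± 3.41 CPM at week 70, and the log2 fold change of 0.09 ± 0.0838 did not pass the test (adjusted p = 0.316). Summing Scd1 with Scd3, which matches 3.5% of its stretches, left a rise of 4.76, and summing Elovl6 with the pseudogene Gm11295 left a fall of 0.55. These sums were fitted only without the length and GC correction.

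**Figure D3:**
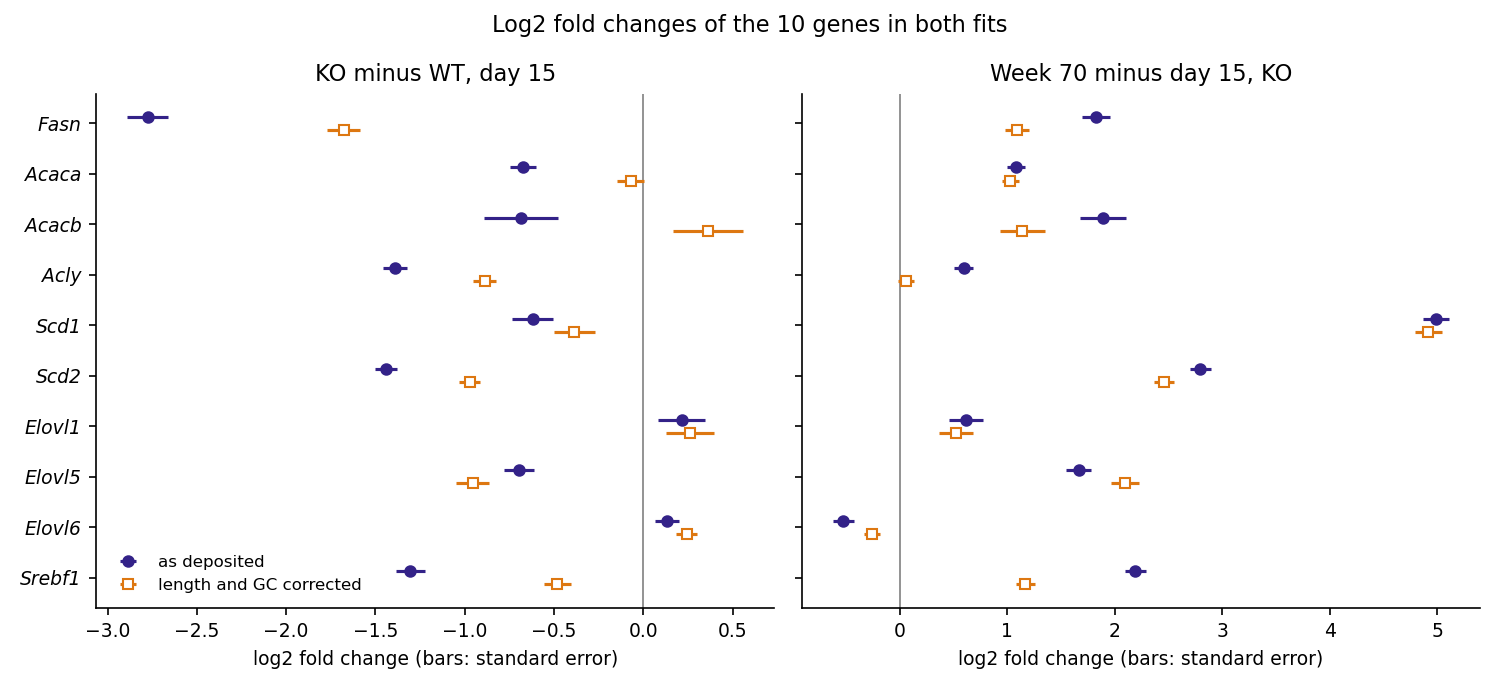
Log2 fold changes (x axis) with standard errors of the 10 genes (y axis) in both comparisons, from the counts as deposited (filled circles) and after removal of the trends along transcript length and GC content (open squares). At day 15 Acaca moves from -0.67 to -0.07 and Acacb from -0.68 to 0.36, and Fasn from -2.78 to -1.68, the last still below 0 by more than its standard error.

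Cell type markers also differed greatly with age. Their calls again come from the fit without correction, in which 37.6% of all tested genes rose and 44.4% fell. The 8 oligodendrocyte markers summed to 84 to 90.3 CPM in KO at day 15 and to 13903.2 to 14055.1 CPM at week 70 (8 of 8 rose). The 6 astrocyte markers went from 177 to 183 up to 7105.3 to 7656.9 CPM (6 of 6 rose), the 5 microglial markers from 17.7 to 20.2 up to 263 to 333 CPM (5 of 5 rose), and the 5 endothelial markers from 37.8 to 51.5 up to 268 to 293 CPM (5 of 5 rose). The 4 markers of proliferating cells went from 302 to 318 down to 1.93 to 4.48 CPM (4 of 4 fell). Neural progenitor markers summed to 204 to 214 CPM at week 70 (4 of 5 fell, 1 rose). The part of these markers in the rise of the synthesis genes was not tested. Adipocyte markers stayed at 0.33 to 0.414 CPM at week 70, with Adipoq, Lep and Cidec at 0, and liver markers at 0.551 to 14.9 CPM.

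Placed in order of CPM, without correction for length and GC content, the 3 groups formed 4 patterns. Fasn and Acly were lowest in KO at day 15, intermediate in KO at week 70 and highest in WT at day 15, with the week 70 mean at 0.541 and 0.602 of the WT fetal mean. Acaca, Acacb, Elovl5, Srebf1, Scd2 and Scd1 were also lowest in KO at day 15 but highest at week 70, at 1.38, 2.41, 2.04, 1.93, 2.67 and 21.6 times the WT fetal mean. Elovl1 was highest at week 70 (1.85 times the WT mean) and Elovl6 lowest there (0.795 times), and their fetal groups overlapped. Every other neighbouring pair of groups was free of overlap. In the corrected fit some of these places did not hold. The log2 fold changes of Acacb and Acaca between genotypes were 0.36 and -0.07 there, and that of Acly with age was 0.06. None of these 3 passed the test. The place of Acaca also holds only for its count without Gm5182. With both summed, the level was 200 ± 5.49 CPM in WT, 93.2 ± 3.98 CPM in fetal KO and 107 ± 3.41 CPM at week 70. WT was then the highest group.

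Per length of transcript, Scd2 dominated in every group. On the scale of CPM per kilobase of the longest transcript, the mean level at day 15 in WT was 193 for Scd2, 90.6 for Acly, 63.8 for Fasn, 21.2 for Elovl5, 15.6 for Srebf1, 14.7 for Elovl6, 7.28 for Acaca, 6.03 for Elovl1, 5.62 for Scd1 and 0.505 for Acacb. The sum over the 10 genes was 418 ± 4.83 in WT (SD, n = 3), 161 ± 8.87 in KO at day 15 (n = 3), and 840 and 824 in the week 70 libraries. Fasn made up 15.2, 15.2 and 15.3% of that sum in WT, 6.34, 5.63 and 4.81% in KO at day 15, and 4.05 and 4.25% at week 70. Acly made up 21.7 ± 0.846% in WT and 20.9 ± 0.469% in KO at day 15, ranges that overlap, and 6.54 and 6.56% at week 70. The share of Scd2 was 46.1 ± 0.422, 42.8 ± 0.753 and 61.8 ± 0.407% in the 3 groups.

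**Figure D4:**
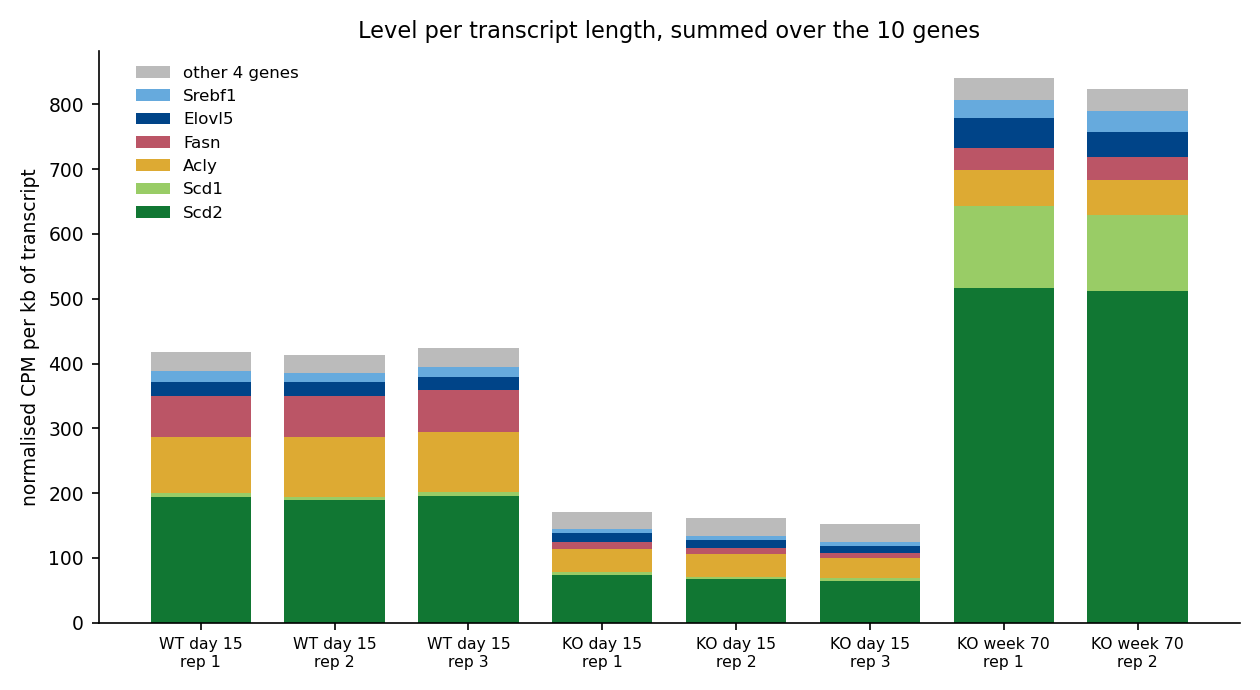
Normalised CPM per kilobase of longest transcript (y axis, linear from 0), stacked over the 10 genes for each of the 8 libraries (x axis). The sums are 414 to 423 in WT, 153 to 170 in KO at day 15 and 824 to 840 at week 70, with Scd2 the largest segment throughout and Scd1 visible mainly at week 70.

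Ratios between related enzymes compare genes within a library, where library scaling cancels. Trends along transcript length and GC content do not cancel, and the ratios were not corrected for them. Scd1 made up 3.01, 2.59 and 2.9% of the summed Scd1 and Scd2 level per kilobase in WT, 5.3, 4.77 and 4.61% in KO at day 15, and 19.5 and 18.6% at week 70. The 3 groups do not overlap. The ratio of Scd1 to Scd2 was 1.77 times the WT ratio in KO brain at day 15, and at week 70 it was 4.59 times that of fetal KO brain. Because Scd2 shares stretches with Scd1, the fetal values of this ratio depend on how such reads were assigned. Elovl6 made up 35.1 ± 0.965% of the summed level of the 3 elongases in WT, 44.5 ± 2.41% in KO at day 15 and 17.8 ± 2.95% at week 70. The log2 ratio of Elovl6 to Elovl5 differed by 0.84 between genotypes (KO minus WT) and by -2.19 between ages (week 70 minus day 15). The log2 ratio of Fasn to Acaca differed by -2.12 between genotypes and by 0.76 between ages. Since the Acaca count is shared in part with Gm5182, that ratio carries the same uncertainty. In the corrected fit, the log2 fold changes of Fasn and Acaca were -1.68 and -0.07 between genotypes. With age they were 1.09 and 1.03, so the corrected rises were nearly alike.

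With 3 libraries against 3, an exact two-sided permutation test cannot go below 0.1, and with 2 against 3 not below 0.2, so none of the 10 ratio tests could reach 0.05. Their adjusted p was 0.222 throughout, apart from the ratio of Acacb to Acaca between genotypes (difference 0.005, adjusted p = 0.9). Acacb held 6.54 ± 1.68% of the summed carboxylase level in WT, 6.43 ± 0.317% in KO at day 15 and 11.6 and 9.97% at week 70. These shares use the Acaca count without Gm5182 and would be lower with both summed. They are also not corrected for length and GC content. In the corrected fit, the log2 fold changes of Acacb and Acaca were 0.36 and -0.07 between genotypes (KO minus WT). With age they were 1.14 and 1.03.

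The wider pathway was described with 8 further lists of 63 genes, of which 62 were in the table used and 60 were tested. At day 15, 17 of the 60 rose and 23 fell in KO, and at week 70, 34 rose and 13 fell within KO, beside the shares over all tested genes given above. Sizes of change in these lists are log2 fold changes. Among the 5 genes that supply acetyl-CoA, citrate and NADPH, 3 fell at day 15 and none rose. G6pdx, which makes NADPH in the pentose phosphate pathway, fell by 0.77 (adjusted p = 2.84e-06), and Slc25a1, the mitochondrial citrate exporter, fell by 0.46 (adjusted p = 0.000136). In the corrected fit 2 fell, and Slc25a1 did not pass (adjusted p = 0.156). With age 3 rose and 1 fell: the malic enzyme Me1 rose by 2.40 (adjusted p = 2.88e-09), and the isocitrate dehydrogenase Idh1 fell by 2.30 on the log2 scale (adjusted p = 3.26e-09). Me1 shares 32.8% of its 50-base stretches with other genes.

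Of the 5 tested desaturases outside the 10 genes, 2 fell at day 15 and 1 rose. Fads2 and Fads1, which desaturate polyunsaturated fatty acids, fell by 1.34 (adjusted p = 1.8e-07) and by 0.70 (adjusted p = 2.11e-06) on the log2 scale, or -0.90 and -0.34 in the corrected fit. Scd3, a low gene beside Scd1 and Scd2, rose by 0.75 (2.0 to 3.27 CPM, adjusted p = 0.012). With age all 5 tested rose, led by Fads6 (3.96, adjusted p = 2.46e-09) and Fads1 (1.89, adjusted p = 9e-09).

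Of the 9 tested members of the elongation cycle, 4 rose and 2 fell at day 15. The dehydratase Hacd1 rose by 1.12 on the log2 scale (4.33 to 9.19 CPM, adjusted p = 0.000158; 0.63 corrected) and the reductase Tecr fell by 0.34 (adjusted p = 0.00154), and in the corrected fit 1 rose and 3 fell. The count of Hacd1 is uncertain, since 31.1% of its 50-base stretches occur in other genes. With age 6 rose and 3 fell, with Tecr higher by 1.78 (adjusted p = 2.62e-08) and the elongase Elovl7 by 3.20 (adjusted p = 1.14e-07). Mitochondrial fatty acid synthesis, a separate route that serves lipoic acid, had 5 tested genes. Of these 2 rose and 1 fell at day 15: the acyl carrier protein Ndufab1 rose by 0.61 (adjusted p = 0.000147) and Cbr4 by 0.54 (adjusted p = 0.00955). In the corrected fit 1 rose and none fell, and Cbr4 did not pass (0.32, adjusted p = 0.0864). With age 3 rose and none fell, among them Ndufab1 (24.0 ± 0.313 to 72.6 ± 10.5 CPM, adjusted p = 2.92e-07) and the ketoacyl synthase Oxsm (0.94, adjusted p = 0.000622).

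Among the 13 regulators, 6 fell and 3 rose at day 15, and 5 fell and 5 rose in the corrected fit. Srebf2, the SREBP of sterol synthesis, fell by 1.69 (316 ± 9.7 to 95.4 ± 9.37 CPM, adjusted p = 3.96e-08), and the retinoid X receptor gene Rxra by 1.63 (31.5 ± 2.54 to 9.93 ± 0.866 CPM, adjusted p = 2.89e-07). The SREBP escort Scap fell by 1.08 (adjusted p = 1.77e-06). The falls were smaller in the corrected fit, at -0.79 for both Srebf2 and Rxra and -0.23 for Scap (adjusted p = 8.8e-06, 2.65e-05 and 0.0128). Thrsp and Mid1ip1, which encode related activators of lipogenesis, went opposite ways: Thrsp rose by 0.98 (1.19 to 2.29 CPM, adjusted p = 0.00571) and Mid1ip1 fell by 0.86 (37.5 to 20.1 CPM, adjusted p = 5.14e-05; -0.55 corrected). Of the 50-base stretches of Mid1ip1, 22.8% also occur in Gm14493. With age 9 of the 13 rose and 1 fell, led by Thrsp (4.15, adjusted p = 3.28e-09) and Mid1ip1 (2.74, adjusted p = 6.03e-09).

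AMP-activated kinase, which phosphorylates and inhibits the carboxylases, and its activating kinase had 7 tested genes, of which 1 rose and 2 fell at day 15. The subunit Prkag2 rose by 0.46 (adjusted p = 1.82e-05) and the upstream kinase gene Stk11 fell by 0.64 (adjusted p = 3.69e-05), which became 0.14 in the corrected fit (adjusted p = 0.0642). With age 1 rose (Stk11, 0.57, adjusted p = 0.000425) and 1 fell (Prkab1, -0.51, adjusted p = 0.00427; -0.90 corrected), and in the corrected fit Stk11 fell by 0.46 (adjusted p = 0.000312).

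Of the 8 genes for fatty acid activation and binding, 4 rose and 2 fell at day 15. Fabp7, the fatty acid binding protein of radial glia, rose by 1.52 (281 ± 30.6 to 785 ± 40.9 CPM, adjusted p = 1.67e-07; 0.51 corrected), Fabp5 by 1.33 (adjusted p = 8.76e-07) and the acyl-CoA binding protein gene Dbi by 1.03 (adjusted p = 1.75e-05). With age 5 rose and 2 fell, with Fabp7 low at week 70 (log2 fold change -5.16, 23.6 ± 4.27 CPM, adjusted p = 3.5e-10; -3.24 corrected) and the ligase Acsl3 higher by 2.11 (adjusted p = 3.47e-09). Of the 8 sterol synthesis targets of SREBP, 5 fell and 2 rose at day 15, but 3 fell and 5 rose in the corrected fit. The isomerase gene Idi1 rose by 1.02 (adjusted p = 1.04e-05; 0.54 corrected), although 30.5% of the stretches of Idi1 occur in other genes. With age 2 rose and 5 fell, among them Fdps (10.2 to 0.943 CPM, log2 fold change -3.53, adjusted p = 4.54e-07) and Lss (log2 fold change -0.63, adjusted p = 7.94e-05). Of the 50-base stretches of Fdps, 11.7% occur in other genes. The median of this list with age was -0.29, near the -0.19 of all tested genes, beside 1.75 for the 10 fatty acid genes.

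**Figure D5:**
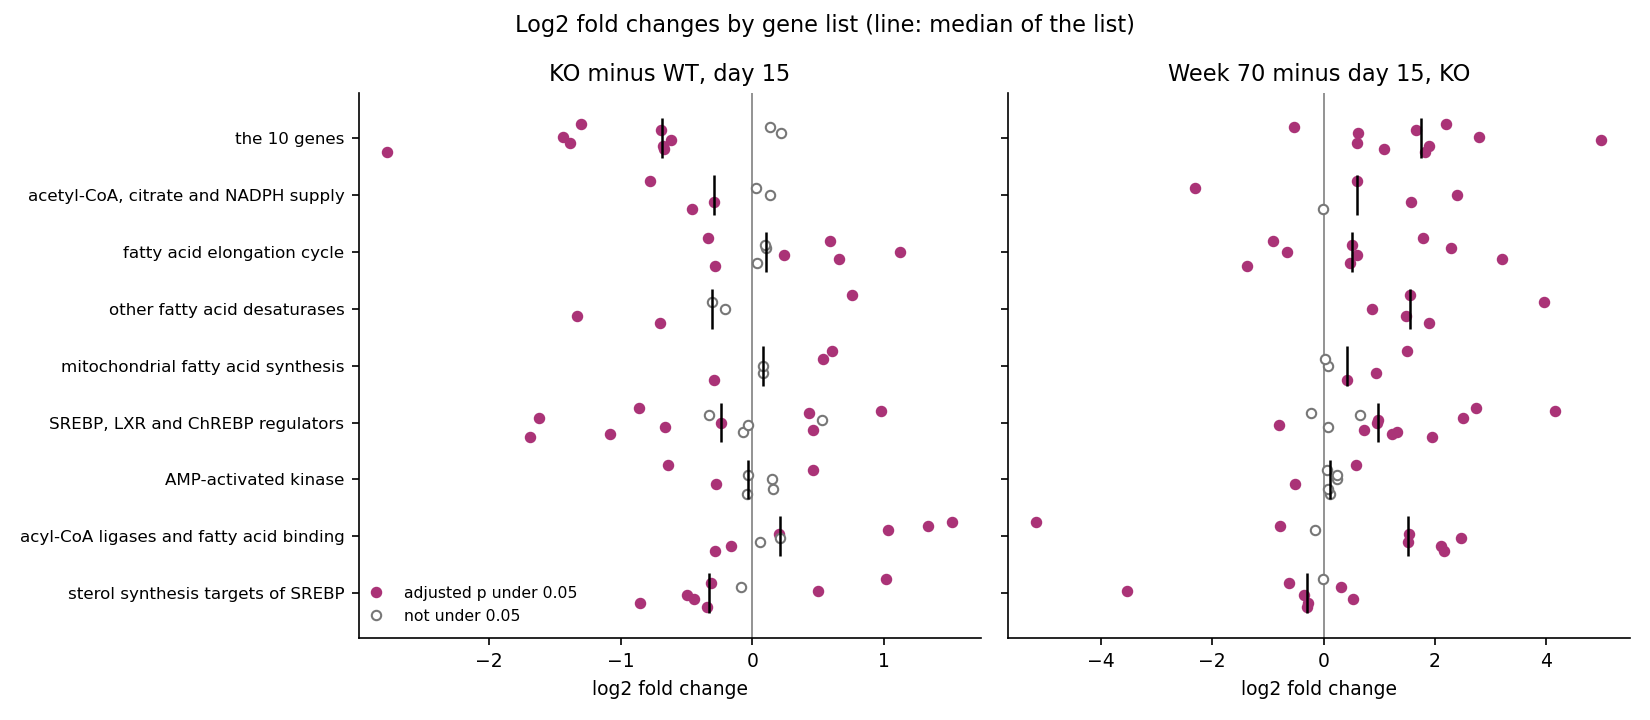
Log2 fold change (x axis) of each tested gene in the 10 genes and the 8 further lists (y axis) for both comparisons; filled points passed an adjusted p of 0.05, open points did not, and lines mark list medians. The median of the 10 genes is -0.69 at day 15 and 1.75 with age, and the sterol list is the only 1 of the 8 with a median below 0 with age. The median of all tested genes with age is -0.19.

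Across the 8 libraries, likeness of pattern was measured as the root mean square distance of log2 normalised CPM, each gene centred on its mean. The search covered 12808 genes with a mean of at least 50 counts and left out the 10 genes themselves. The genes nearest to Fasn were Mmp15 (0.18), Irf2bpl (0.199), Pom121 (0.206), Slc7a5 (0.215) and Fscn1 (0.241). The genes nearest to Scd2 were Lmtk2 (0.046), Ogdh (0.059), Fam43a (0.067), Nell2 (0.078) and Fam234b (0.086). Among the 10 genes, the closest pairs were Acacb and Elovl5 (0.208), Scd2 and Srebf1 (0.259) and Acaca and Elovl5 (0.274). The farthest pair was Scd1 and Elovl6 (2.254). These distances describe 3 groups of libraries and carry no test.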

How the data were processed

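The values are raw counts of reads per gene, which the authors deposited as 1 table with a column for each library. The submitters' processing notes name FastQC, cutadapt, Trimmomatic, HISAT2, featureCounts and edgeR, and the builds GRCm38 and GRCm39, without saying which build the counts use. Whether strand was used, and how multiply matching reads were treated, is not given in the sources used here, so counts of genes with copies or overlaps are uncertain. At 14110031 to 20833397 counts per library, a count of 0 allows up to 3 counts (0.14 to 0.207 CPM), for counting error only. No column of the table was left unmatched to a sample, and no 2 replicates agreed within sampling noise (chi-square per degree of freedom at least 3.2).

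Testing used R 4.3.3 and edgeR 4.0.16 with filterByExpr, TMM scaling, the two-sided quasi-likelihood F-test and Benjamini-Hochberg adjustment with a threshold of 0.05. The genotype comparison used the 6 fetal libraries and the age comparison the 5 KO libraries. Standard errors were derived from the F statistic. Ratios between genes were tested by exact permutation. Length and GC content came from GENCODE M21 on GRCm38, matched by identifier for 97.3% of genes, and the corrected fit used mgcv 1.9.3 smooths as offsets. Alternatives were other scalings and filters, DESeq2 1.42.0, all 8 libraries in 1 fit, a 1.5-fold threshold, the corrected fit, a replicate block, and each library left out. Summing genes with their copies was chosen after seeing the data.

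The 10 genes, the further lists and the tests were chosen with earlier results of these data known. All 10 genes are named, and from each list at least the 2 genes with the smallest adjusted p in each comparison, except 1 gene that is not reported here; others from the lists were chosen after their values were seen. For Fasn and Scd2 the 5 genes nearest in pattern are named, leaving out the 10 genes, predicted genes and clones. Hsd17b8 and Serpina1a were not analysed here, and Elovl3 and Scd4 were too low to be tested. The fits without correction were also run on simulated counts, in which 200 genes changed by 1 on the log2 scale. Those counts held no trend along length or GC content and far fewer changed genes than were called here. That run therefore does not show how reliable the calls in these data are.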

Additional observations from a re-analysis of the deposited data

How the results depend on the processing

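Fasn, Acly, Scd2 and Srebf1 kept their direction and their call at day 15 under all 18 alternatives, and Fasn, Acacb, Scd1, Scd2, Elovl5 and Srebf1 did so under all 17 of the age comparison. Tested against 1.5-fold, 4 of the 10 genes and 4593 of all genes were called at day 15. With length and GC correction the log2 fold change of Acacb between genotypes turned to 0.36, and to 0.38 when the replicate block was added. The ratio of Acacb to Acaca between genotypes ranged from -0.22 to 0.188 as single libraries were left out. Leaving out single libraries gave 7 to 9 called genes at day 15 and 10 in the age comparison, and the other alternatives gave 7 to 10 with age.

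Replicate numbers did not pair the libraries. Same-numbered WT and KO libraries deviated from their group means with correlations of -0.144, -0.169 and -0.146, and no such library correlated best with its own number; in the KO pairs of both ages the correlations were 0.025 and 0.006. With the replicate block, 8 of the 10 genes and 11184 of all genes were called at day 15, and 10 and 14876 in the age comparison. The median log2 fold change of all tested genes was 0.03 at day 15 (0.20 with upper-quartile scaling) and -0.19 with age (-0.44 with upper-quartile scaling, -0.72 with total counts). Depth limits Acacb most, the lowest of the 10 genes, at 2.49 to 11.5 CPM.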
